A study of Drosophila melanogaster with 3 samples.

Results

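The peaks described here are the binding sites of the ecdysone receptor EcR that lie on the X chromosome of Drosophila melanogaster pupae. They were chosen by chromosome alone. Of the 9095 peaks in the authors' optimal list, 1405 lay on X (15.4%), and the comparison arms 2L, 3L and 3R held 1528, 2104 and 2230. The data came from chromatin immunoprecipitation followed by sequencing (ChIP-seq). The description names an anti-GFP antibody, whereas the antibody tag in the labels says EcR, and the description was followed. There was 1 group, of 3 biological replicates from separate biosamples. Each was made from whole pupae of strain EcR-GFP, aged 24 hours per the labels, with both sexes pooled and with EcR carrying eGFP at its C-terminus. Neither the share of males, the number of animals per sample nor the fate of the untagged receptor in this line is given in the sources used here. The whole animal was used, so a peak cannot be assigned to a tissue. No other stage, line or treatment was analysed here.

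EcR is the nuclear receptor for the moulting hormone ecdysone. It binds DNA together with ultraspiracle, the product of usp, at inverted repeats of a short receptor site, and switches on early regulators such as br and Hr4 at the onset of metamorphosis. Male flies carry a single X, whose transcription is raised by the dosage compensation complex with the roX RNAs, whereas females carry a pair. In a mixed-sex sample X is therefore present in fewer copies than an autosome. Copy number and receptor binding cannot be told apart in any comparison of X with autosomes below.

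The first sequences are shown because they carry the receptor's own element at strongly bound X sites. Each is the 31 bases around the element as read on the forward strand of the release 6 genome (dm6, RefSeq), and capitals mark the 13 bases of the inverted repeat with its spacer of 1 base. The first 4 lie at the 4 peaks with an element among the 15 strongest on X, and each has 1 mismatch to the searched pattern. The first is classed as promoter by the CG4586 start, 307 bp from its summit, which also lies in the region of Setd3.
Setd3 and CG4586 promoter (chrX:6969571-6969601): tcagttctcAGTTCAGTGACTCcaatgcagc
Hr4 promoter (chrX:1941782-1941812): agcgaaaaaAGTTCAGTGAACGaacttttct
Pdcd4 intron (chrX:13747272-13747302): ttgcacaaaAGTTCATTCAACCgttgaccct
prage intron (chrX:1826659-1826689): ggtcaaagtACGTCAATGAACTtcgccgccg
The next 5 match the pattern with 0 mismatches and lie at weaker peaks. The element labelled kirre also lies in the region of CG32795, and its summit is 830 bp from the CG32795 start.
Ypel promoter (chrX:10209948-10209978): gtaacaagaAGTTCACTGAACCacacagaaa
kirre intron (chrX:2788461-2788491): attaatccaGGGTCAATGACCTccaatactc
Rala intron (chrX:3710877-3710907): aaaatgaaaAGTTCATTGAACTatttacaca
Tlk intron (chrX:3725211-3725241): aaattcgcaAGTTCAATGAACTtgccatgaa
Notch intron (chrX:3143802-3143832): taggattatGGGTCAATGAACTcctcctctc
The 2 strongest X peaks, both in an intron of Hr4, had no such element within 100 bp of the summit. Their 201-base summit windows are shown because they hold the simple repeats that were more frequent at X peaks, a CA repeat in the first and a GA repeat in the second. Capitals mark the repeat on whichever strand holds it.
Strongest X peak (chrX:1951529-1951729): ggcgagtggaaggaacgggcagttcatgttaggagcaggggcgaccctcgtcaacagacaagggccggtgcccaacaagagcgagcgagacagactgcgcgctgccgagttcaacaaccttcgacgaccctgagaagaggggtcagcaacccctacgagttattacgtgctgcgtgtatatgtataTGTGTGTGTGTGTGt
Second strongest X peak (chrX:1948102-1948302): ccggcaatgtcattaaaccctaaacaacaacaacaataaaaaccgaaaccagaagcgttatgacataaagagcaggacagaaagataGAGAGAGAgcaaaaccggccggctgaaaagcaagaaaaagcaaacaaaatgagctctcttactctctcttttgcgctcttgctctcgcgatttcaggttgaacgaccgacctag

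X peaks were sparser per Mb than those of the other arms. The optimal list held 59.8 peaks per Mb of known bases on X, against 65.0 on 2L, 75.2 on 3L and 69.6 on 3R, a ratio of X to the mean of these arms of 0.856 (log2 -0.22). Densities here and below include 5 bins of 1 Mb on 3L and 4 on 3R without an optimal peak. X and 2L had 0 such bins, and densities without them were not computed. Among the strongest 9095 peaks of each replicate, X had 56.8, 61.9 and 60.7 peaks per Mb in replicates 1, 2 and 3, from 1333, 1452 and 1424 peaks. In all 3 replicates X had the lowest density of these 4 arms, lowest of all in replicate 1. The ratio was 0.856 ± 0.0436 (SD, n = 3), and the two-sided exact sign-flip permutation p over the replicates was 0.25 (adjusted 0.417 over 10 results). That is the smallest p which 3 replicates allow, so no comparison here can pass a threshold of 0.05. Per protein-coding gene the optimal ratio was 0.962, since X has 93.5 such genes per Mb against 97.8 to 113 on the other arms. X held 15.4% of the peaks and 15.7% of these genes. The shares were 16.8% and 19.1% on 2L, 23.1% and 19.6% on 3L, and 24.5% and 24.5% on 3R. Per gene X thus stood above 2L, slightly below 3R and furthest below 3L.

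The peaks on X were also weaker. Each peak's deposited signal was turned into a percentile of its list, with 100 for the strongest. The median X peak stood at percentile 45.3, against 51.2 on 2L, 51.3 on 3L and 51.2 on 3R. It was 46.1, 46.4 and 46.4 in the replicates, below each of the other arms every time. The difference from the mean of the arms was -4.87 ± 0.328 percentile points (SD, n = 3), lower on X in 3 of 3 replicates, with an exact sign-flip permutation p of 0.25 (adjusted 0.417). Of the X peaks, 21.1% fell in the strongest 25% of the optimal list and 27.8% in the weakest 25%. In the authors' units the median signal was 584 on X and 637 on each of 2L, 3L and 3R. The promoter peaks stood furthest below those of the other arms, with a median percentile of 40.3 against 47.8 to 51.0. X minus the mean of the arms was -7.82 ± 1.69 points at promoters (SD, n = 3 replicates). It was -4.22 ± 1.502 in introns and -1.45 ± 1.17 in intergenic sequence (exact sign-flip permutation p = 0.25 for each of the 3 classes). Whether the classes differ from each other was not tested.

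**Figure D1:**
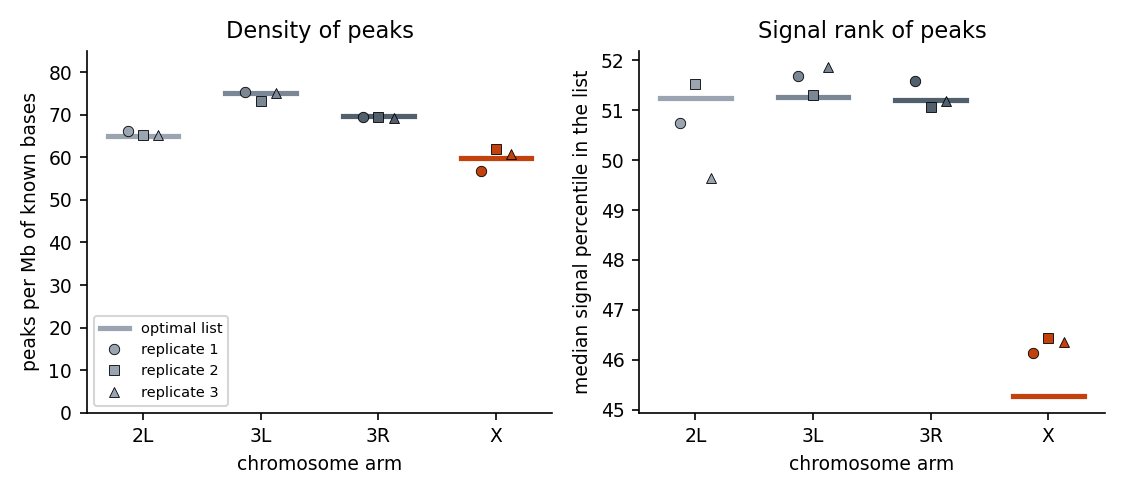
The left plot gives peaks per Mb of known bases and the right plot the median signal percentile for 2L, 3L, 3R and X, where lines are the optimal list and symbols the strongest 9095 peaks of each replicate. The right axis starts above 0. The X symbols lie between 56.8 and 61.9 peaks per Mb and between percentiles 46.1 and 46.4, below all symbols of the other arms.

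The shortfall against the mean of the arms was greatest among the strongest peaks and was gone in the full lists. X holds 17.6% of known bases. It held 10, 12 and 12 of the 100 strongest peaks in replicates 1, 2 and 3, and 58, 66 and 60 of the strongest 500. Of the strongest 100, 2L held 30, 26 and 29, 3L 33, 34 and 32, and 3R 14, 15 and 14. Since 3R holds 24.0% of known bases, X was near 3R per base at that depth. It was below 3R in replicate 1 and above it in replicates 2 and 3. The density ratio of X to the mean of the arms was 0.512 ± 0.0610 (SD, n = 3) over the strongest 100, 0.606 ± 0.0478 over 500 and 0.718 ± 0.0338 over 1000. It was 0.767 ± 0.0443 over 4547 and 0.932 ± 0.0504 over 15000. X stayed below the mean of the arms in 3 of 3 replicates at each of the 8 depths up to 15000 (exact sign-flip permutation p = 0.25 at each, adjusted 0.281 over 9 depths). In the full lists of 30000 peaks the ratio was 1.01 ± 0.0356, and X was below the mean of the arms in 1 of 3 replicates (exact permutation p = 0.75). The depths are nested, so they are not separate evidence.

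**Figure D2:**
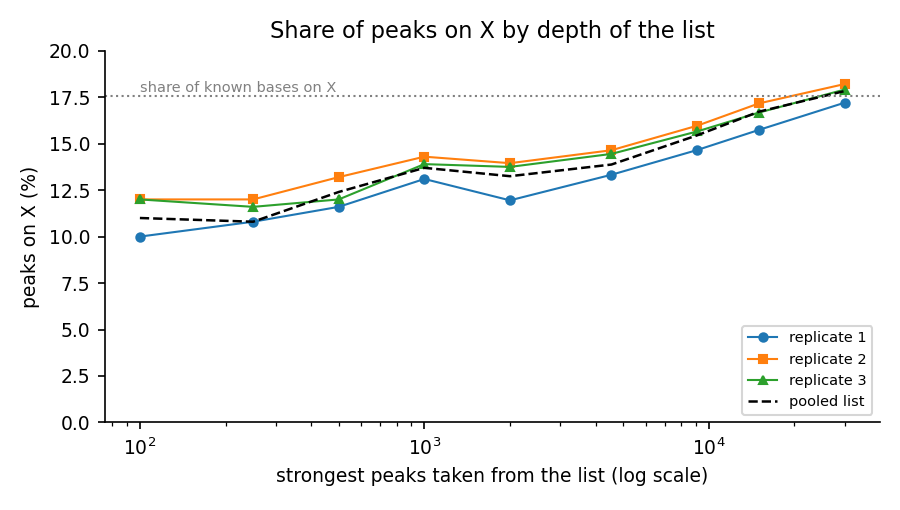
The share of peaks on X (%) is plotted against the number of strongest peaks taken, on a log axis, for the 3 replicates and the pooled list, with a dotted line at the X share of known bases. The share lies between 10% and 12% for the strongest 100 and between 17.2% and 18.2% for all 30000.

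Most X peaks recurred in the replicates. All 3 replicates had a strong summit within 100 bp of 898 X peaks (63.9%, against 66.3% to 67.6% on the other arms). For 339 a summit was found in a pair of replicates, for 157 in 1 and for 11 in none. Replicates 1, 2 and 3 held 80.6%, 84.9% and 85.6% of the X peaks, against 84.6%, 84.6% and 86.4% for the mean of the arms. The X share was low in replicate 1, and the difference of -1.45 ± 2.21 percentage points (SD, n = 3) lay within the spread between replicates (exact sign-flip permutation p = 0.5). Recurrence followed signal: 12.3% of X peaks in the weakest 25% of the list were in all 3 replicates, 65.3% and 93.7% in the next bands of that size and 96.6% in the strongest. As a description over peaks, signal ranks on X had a Spearman rho of 0.828 between replicates 1 and 2 (1325 peaks), 0.741 between 1 and 3 (1319) and 0.741 between 2 and 3 (1334). Each was below that of every other arm, at 0.840 to 0.872, 0.773 to 0.791 and 0.769 to 0.794 in the same order. The peaks compared share their library.

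Over the length of X the peaks were spread unevenly. In the 23 full bins of 1 Mb, counts ran from 6 to 99 with a median of 61, with 0 empty bins on X and on 2L, 5 on 3L and 4 on 3R. The densest 3 bins in a row, chrX:1000001-4000000, held 290 peaks, which is 20.6% of the X peaks in 12.7% of its length. The replicates had 285, 312 and 293 peaks there. Such a cluster was not particular to X. The densest 3 bins in a row held 20.2% of the peaks in 12.8% of the length on 2L. On 3L they held 21.6% in 10.7%, and on 3R 14.1% in 9.35%. The X stretch holds br, Hr4, usp, sgg, Raf, Mnt, Tlk and Notch among 287 protein-coding genes. Its last bin, from 3000001, had the most peaks of any X bin (99) on 55 genes. The fewest lay in the last full bin, from 22000001, with 6 optimal peaks and 2, 5 and 9 in the replicates, on 46 genes.

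By location, X peaks were more often intronic and less often intergenic than those of the other arms. Introns held 725 X summits (51.6%, against 46.2% on 2L, 42.4% on 3L and 45.5% on 3R). The replicates gave 50.6%, 51.0% and 51.3%, above each of the other arms every time. The difference from their mean was 6.19 ± 0.912 percentage points (SD, n = 3; exact sign-flip permutation p = 0.25, adjusted 0.417). Intergenic sequence held 105 X summits (7.47%, against 11.1%, 19.7% and 11.4%), and 7.65%, 7.51% and 8.22% in the replicates, below each arm every time. That difference was -6.22 ± 0.475 points (SD, n = 3; exact sign-flip permutation p = 0.25, adjusted 0.417). Promoters, taken as 500 bp around a start, held 483 (34.4%, against 36.9%, 32.9% and 37.4%). The promoter difference of -0.877 ± 1.07 points did not exceed the spread (SD, n = 3; exact sign-flip permutation p = 0.5). Exons held few summits: 33 lay in coding exons, 27 in 3′ UTRs, 16 in 5′ UTRs and 16 in noncoding exons. The 3′ UTR share of 1.92% stood above the 0.618% to 0.916% of the other arms, with 2.25%, 1.86% and 1.69% in the replicates against at most 1.04% there.

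Set against the bases that each class covers, intronic summits on X were within the range of the other arms and intergenic summits were below it. Counted only beyond 500 bp from a start, introns cover 43.4% of the length of X, against 36.5% on 2L, 36.96% on 3L and 43.1% on 3R. Per share of bases, intronic summits on X (1.19) lay within the range of the other arms (1.05 to 1.27). Intergenic sequence, counted in the same way, covers 22.6% of X, and summits there reached 0.331 of the share of bases, against 0.390, 0.611 and 0.478. In replicates 1, 2 and 3 this X ratio was 0.339, 0.333 and 0.364, each time below the lowest other arm, at 0.369, 0.350 and 0.413. The gap to 2L was small in replicate 2. Promoter summits reached 2.73 times their share of X bases, within the 2.48 to 2.80 of the other arms.

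**Figure D3:**
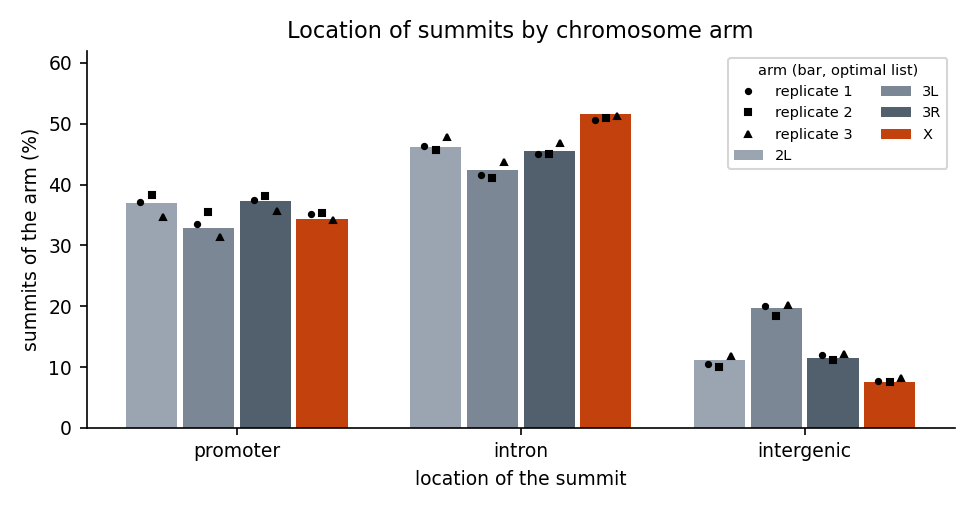
Bars give the share of each arm's optimal summits (%) in promoters, introns and intergenic sequence, and symbols the strongest 9095 peaks of each replicate. The X bar is the tallest for introns (51.6%) and the lowest for intergenic sequence (7.47%), and lies among the others for promoters (34.4%).

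Genes bound were counted among protein-coding genes, each taken as its body plus the 2 kb before its outermost start. On X 698 of 2196 genes held a summit there (31.8%), against 30.7% of all protein-coding genes. The other arms had 27.9% on 2L, 32.7% on 3L and 30.6% on 3R, so the X share is near the background. In the replicates it was 29.3%, 32.1% and 31.4%, and the difference from the arms, 0.912 ± 1.47 points (SD, n = 3), lay within the spread (exact sign-flip permutation p = 0.5). Of the bound X genes, 368 had 1 summit and 20 had at least 10. X genes are longer, with a median region of 4521 bp against 3986 to 4130 bp. Split by region length into 4 groups, a division chosen after the data were seen, the shortest group (up to 3.179 kb) had 7.88% of 457 X genes bound, against 10.8%, 17.96% and 14.03% on 2L, 3L and 3R. The replicates gave 7.44%, 9.63% and 8.32% there, below each of the other arms every time. In the longest group (from 6.998 kb) 56.4% of 649 X genes were bound, against 53.6% to 55.3%. The replicates gave 53.6%, 57.3% and 56.7% there, and in replicate 1 X was below 3L (55.0%).

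The strongest X peaks lay in and around Hr4, an ecdysone-induced nuclear receptor that times the prepupal response. The strongest, at chrX:1949366-1953522, ranked 19 in the optimal list and 27, 24 and 15 in replicates 1, 2 and 3. The next, at chrX:1946460-1949364, ranked 26 and was at 34, 34 and 23. Both summits are intronic. The Hr4 promoter peak at chrX:1941157-1942488, whose element is shown above, ranked 63 (70, 43 and 74 in the replicates), with its summit 100 bp from the start and also in the region of CG3857. Another Hr4 intron summit had rank 98 and varied more, at 188, 128 and 65. In all, Hr4 (FBgn0264562, X 1941940-2007956) held 24 summits in 14 regions, and 28, 31 and 26 in the replicates. They formed separate blocks: 11 lay up to 11.13 kb from the start, then none until 21.8 kb. The 11 highest of the 24 ranked from 19 to 442, and 9 of these stood in the first block. In the second block the summits at 26.85 and 34.2 kb ranked 368 and 353.

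**Figure D4:**
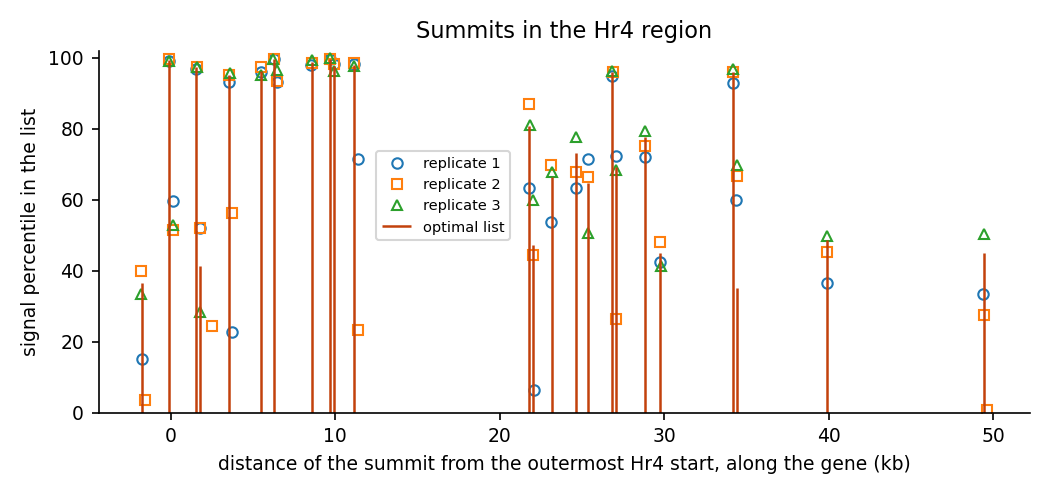
The signal percentile of each summit in the Hr4 region is plotted against its distance in kb from the outermost start, with vertical lines for the optimal list and symbols for the strongest 9095 peaks of each replicate. Strong summits crowd the first 11.13 kb, an interval without optimal summits follows, and a second, mostly weaker block starts at 21.8 kb.

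Outside Hr4, the strongest X peaks lay at Ptpmeg2, sgg, Setd3 and CG4586, and phtm. A promoter peak of Ptpmeg2, a tyrosine phosphatase gene, ranked 27 at chrX:9645575-9647170 (38, 23 and 26 in the replicates). A promoter peak of sgg, the fly GSK3 kinase of Wingless signalling, ranked 40 at chrX:2645675-2646981 (44, 40 and 39). Both lay within 269 bp of a start of their gene. The peak ranked 42 at chrX:6969068-6970268 lies in the regions of Setd3 and CG4586 and was at 39, 29 and 60. Rank 49 was upstream of phtm, the cytochrome P450 phantom of ecdysone synthesis, at chrX:18684044-18686279 (52, 60 and 42). Its summit lies 1089 bp from the phtm start. The remaining members of the strongest 15 were a coding exon peak of bif, an actin-binding protein (rank 73), and intron peaks of Ypel (74), Pdcd4 (83), Arp2, part of the actin-nucleating Arp2/3 complex, spri (122), Tlk, the Tousled-like kinase (124), and prage (128). The Ypel peak is shared with ATPsyndelta. All 15 had a strong summit in all 3 replicates.

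Dense clusters of summits marked 20 X genes, or 0.911% of them, against 0.866% to 1.02% on the other arms. After Hr4 came Tlk with 22 (24, 22 and 24 in the replicates), and Mnt, the repressor that opposes Myc, with 21 (21, 20 and 19). Mnt was the densest of the 20 for its length, at 6.59 summits per 10 kb. Raf, the kinase of receptor tyrosine kinase signalling, had 20 (18, 21 and 24). The early ecdysone gene br, a zinc-finger factor that specifies the pupal stage, had 18 (18, 15 and 16). Mur2B had 19, and its region overlaps that of br, where they share a 4802 bp region with 6 summits at chrX:1613965-1618766. The others were kirre, an immunoglobulin protein of myoblast fusion (18), CG1677 (16), Drak and prage (14 each), Ptpmeg2, Tis11, which acts in mRNA decay, and spri (13 each), Smr, bves and mamo (12 each), CG43658, Flo2 and kek5 (11 each), and CG43759 (10). Drak had 9, 12 and 13 and kirre 14, 20 and 21 in the replicates, lowest in replicate 1. The counts were 9, 8 and 14 for mamo, 9, 10 and 10 for kek5 and 9, 9 and 8 for CG43759, which was below 10 in every replicate. For scale, the most on another arm was 25 on 3R, 24 on 2L and 83 on 3L. Fewer X summits shared a region with others, 391 (27.8%) against 30.8% to 32.7%.

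Hormone genes on X were bound in 7 of 11 cases (63.6%, and 63.6%, 63.6% and 72.7% in the replicates). Among all X genes 31.8% were bound, and 56.4% of those with regions from 6.998 kb. The median region of the hormone genes was 7.157 kb, against 4.521 kb for all X genes. The median best rank of the bound hormone genes was 693, against 3986.5 for all bound X genes. In the other lists it ran from 696 (3 bound cuticle, chitin and pigment genes) to 5299.5 (2 bound autophagy and cell death genes). On the receptor side, usp had 1 promoter summit of rank 6064 (6870, 4412 and 7524 in the replicates). It lies 68 bp from the start that the annotation gives to both usp and Actn, and also lies in the region of CG4313. Smr, a corepressor of EcR, had 12 summits with a best intron rank of 160 (214, 157 and 133). Nejire (nej), the CBP acetyltransferase, had none in the optimal list and 1 in replicate 3. Among early regulators, br had a best rank of 693. Of the enzymes, phtm had 2 summits, and Cyp18a1, which inactivates ecdysone, had 1 promoter summit of rank 3033 (4370, 4603 and 2198). The juvenile hormone receptors differed, with 5 summits at gce (best rank 1862, a promoter; 2379, 1700 and 3491 in the replicates) and 0 at Met. The glue gene Sgs4 and the vacuolar sorting gene dor had 0 in the optimal list and in each replicate.

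Genes of dosage compensation and sex determination were bound in 3 of 9 coding cases (33.3%; 33.3%, 33.3% and 44.4% in the replicates), a share near the 31.8% of all X genes. Sxl, the switch of sex determination, had 2 summits, led by an intron peak of rank 364 at 384, 365 and 352 in the replicates. The germline genes ovo and otu had 4 and 1, with best ranks of 2817 and 4365, and the otu summit also lies in the region of CG33181. No optimal summit lay at mof, the acetyltransferase of the dosage compensation complex, or at sisA, sc, run, upd1 and snf, and upd1 had 1 in replicate 3. The noncoding roX1 and roX2 had none either. The nearest X summits were 4825 bp and 2361 bp away, and ranked 5524 and 8899.

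Disc patterning and Notch genes were bound in 13 of 18 cases (72.2%, and 72.2%, 72.2% and 66.7% in the replicates). Among all X genes 31.8% were bound, and 56.4% of those with regions from 6.998 kb. The median region of the disc patterning and Notch genes was 20.3 kb, against 4.521 kb for all X genes. The median best rank of those bound was 5268, against 3986.5 for all bound X genes. Besides sgg, the bound disc patterning and Notch genes included the receptor gene N, with 9 summits and a best rank of 2599, and the cytokine gene upd3, with 2 and 2414. Growth and cell cycle genes were bound in 9 of 14 cases (64.3%, and 57.1%, 57.1% and 71.4% in the replicates), with a median region of 16.9 kb. Mnt (best rank 137), the kinase gene mnb (159, with 9 summits) and Raf (458) led them, and Myc had 7 summits with a best rank of 2516. Muscle and cytoskeleton genes were bound in 7 of 11 cases (63.6%, and 54.5%, 63.6% and 63.6% in the replicates), with a median region of 20.5 kb. They were led by the actin gene Act5C, with 4 summits and a 3′ UTR peak of rank 255. The myosin light chain gene sqh (533) and the fascin gene sn (1675) followed. The sn peak ranked 1935 and 2081 in replicates 1 and 2 and had no summit within 100 bp in replicate 3. In cuticle, chitin and pigment genes 3 of 10 were bound (30%, and 30%, 30% and 40% in the replicates), a share near that of all X genes. They were the chitinase genes Cht6 (272) and Cht11 (696) and the pigment gene rb (8438), whose peak recurred in 1 replicate. Of 5 autophagy and cell death genes, Atg5 (2731) and Atg8a (7868) were bound (40%, and 20%, 40% and 40% in the replicates, against 31.8% of all X genes). The peaks at Act5C, sqh, Cht11, rb, Atg5 and Atg8a also lie in regions of neighbouring genes.

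Neuron genes on X were bound in 10 of 20 cases (50%, and 40%, 55% and 50% in the replicates). Among all X genes 31.8% were bound, and 56.4% of those with regions from 6.998 kb. The median region of the neuron genes, 48.6 kb, was the longest of the 8 lists, against 4.521 kb for all X genes. The teneurin gene Ten-a (best rank 593), the potassium channel subunit gene Hk (1276) and the adhesion gene sdk (1565) led the neuron genes. Among the long genes of the list, Ten-a (294 kb) had 5 summits, Fas2 (75.2 kb) 5, sdk (64.7 kb) 7 and eag (56.5 kb) 1. The eag summit, of rank 9040, lies before the gene body, 49 bp from the start of pdgy, and recurred in 1 replicate. Long genes of the list without an optimal summit included dnc (169 kb), shakB (168 kb), Sh (141 kb), the sodium channel gene para (80.1 kb), the calcium channel gene cac (55.8 kb), Appl (50.5 kb) and futsch (46.6 kb). Of these 7, dnc had 1 summit in replicate 2, and the others had none in any replicate.

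The receptor's element was at a similar share of X summits and of those on the other arms. The inverted repeat, with at most 1 mismatch on either strand within 100 bp of the summit, was present at 69 X peaks (4.91%), against 4.84% to 5.61% on the other arms. In the replicates X had 4.65%, 4.27% and 5.90%, and the difference from the arms was 0.0426 ± 0.428 points (SD, n = 3; exact sign-flip permutation p = 1). The element was in 0.712% of windows 1 kb from X summits and in 0.429% of all windows of the same 201 bp on X. Its share at X peaks was 11.5 times that of all X windows, against 9.93 to 10.3 times on the other arms. Over the windows 1 kb away it was 6.9 times, within the 4.8 to 8.3 of the other arms. The 69 elements lay a median of 23 bp from the summit, and 57 of the peaks had a strong summit in all 3 replicates. Introns held 44 of them, promoters 13, intergenic sequence 8, coding exons 3 and a 5′ UTR 1. X peaks with the element had a median signal percentile of 70.6, and those without it 44.3. A match with 0 mismatches occurred at 9 X peaks, and that in Notch, of rank 7636, recurred in 1 replicate.

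CA and GA repeats were more frequent at X peaks than at those of the other arms, and they are also more frequent across X as a whole. The CA repeat, searched as CACACACA on both strands, was at 180 X peaks (12.8%), against 8.77% on 2L, 9.89% on 3L and 9.19% on 3R. The replicates had 14.5%, 13.2% and 12.2% on X, above each arm every time. The difference was 3.95 ± 0.797 points (SD, n = 3; exact sign-flip permutation p = 0.25, adjusted 0.417). All X windows held it in 5.76%, against 3.50% to 3.998% elsewhere, so X exceeded the mean of the arms 1.52 times in windows and 1.38 times at peaks. The median run at these peaks was 11 bases and the longest, in an intron of Imp, 47. The GA repeat, searched as GAGAGAGA on both strands, is bound by GAGA factor and by CLAMP, which brings the dosage compensation complex to X. It was at 114 X peaks (8.11%), against 4.12%, 4.99% and 5.83% on 2L, 3L and 3R. In the replicates X had 7.80%, 7.92% and 7.65%, above each arm every time, a difference of 2.70 ± 0.0607 points (SD, n = 3; exact sign-flip permutation p = 0.25, adjusted 0.7 over 7 motifs). The ratio of X to the mean of the arms was 1.63 at peaks, 1.46 over all windows and 1.41 in the windows 1 kb away. The GA share at X peaks was 5.30 times that of all X windows, within the 4.04 to 5.58 times of the other arms. Over the windows 1 kb away it was 3.17 times, within the 2.38 to 3.38 of the other arms. X peaks with a CA repeat were no stronger by rank, at median percentile 45.8 against 45.2 without, and those with a GA repeat stood at 51.0 against 44.9.

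**Figure D5:**
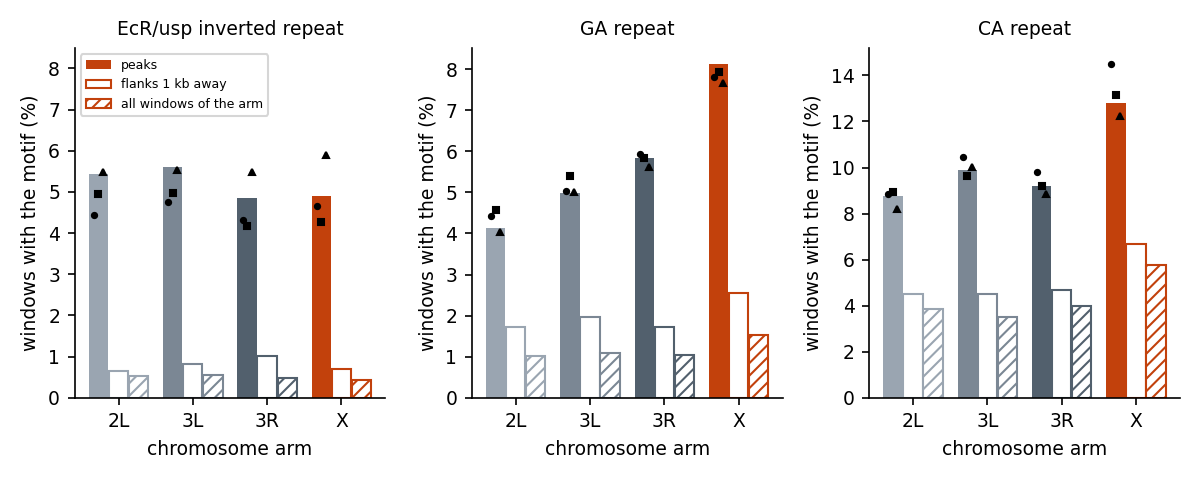
Each plot gives the share of 201 bp windows (%) that hold the EcR/usp inverted repeat, the GA repeat or the CA repeat, by arm. Filled bars are optimal summits with symbols for the replicates (circle 1, square 2, triangle 3), open bars are windows 1 kb away and hatched bars all windows of the arm. X stands at 4.91%, 8.11% and 12.8% at summits, above the other arms for both repeats and among them for the inverted repeat.

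For the other motifs no difference beyond the spread between replicates was detected. The single 6-base receptor site, AGGTCA, was at 8.40% of X peaks and at 7.85% to 7.89% of those on the other arms. The DRE (TATCGATA) was at 0.925%, against 0.570% to 0.942%, and the Zelda site (CAGGTAG) at 1.07%, against 1.05% to 1.19%. The AP-1 site (TGAGTCA) was at 2.56%, against 2.68% to 2.90%. For the single receptor site the difference was 0.102 ± 0.151 points (SD, n = 3; exact sign-flip permutation p = 0.5). It is part of some inverted repeats, so the searches overlap. In base composition, X summit windows averaged 46.1% G and C, against 45.7% to 45.9%. In the replicates X exceeded the mean of the arms by 0.0517 ± 0.0136 points (SD, n = 3; exact sign-flip permutation p = 0.25) and was above each arm in 0 of 3. X peaks were narrower, with a median width of 539 bp against 566 to 579.5 bp.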

How the data were processed

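ChIP-seq peak lists in dm6 were analysed for 3 replicates of 1 group. Per the deposited notes, the authors derived each replicate list and a pooled list of 30000 peaks from alignments and a control, and an optimal list by the irreproducible discovery rate. The signal in each list is the authors' deposited value per peak. The sources used here name no aligner, peak caller or read number, so the depth behind a peak is unknown and intervals for counting error were left out. The optimal list equals the 9095 strongest pooled peaks and is not independent of the replicates, so tests used the strongest 9095 peaks of each replicate list. Peaks and genes are not replicates. The labels do not say whether the biosamples came from separate collections, so p-values may measure only the spread between these samples. Columns not tied to a sample numbered 0.

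Summits were placed with the Ensembl 115 annotation, promoters (500 bp) taking precedence, then UTRs, coding exons, exons of noncoding genes and introns, with all else intergenic. A summit in overlapping gene regions counted for each gene. X was compared with the mean of 2L, 3L and 3R by a two-sided exact sign-flip permutation test over replicates, with Benjamini-Hochberg adjustment over 10 results (over 7 for motifs, 9 for depths). Python 3.11.15, numpy 2.4.6, pandas 2.3.3 and matplotlib 3.10.9 were used, and the code was tested on simulated data. Named genes are the 15 strongest X peaks, every X gene with at least 10 summits, every hormone and dosage or sex determination gene of the lists, and, of each other list, the 3 bound genes with the strongest peaks. Myc, ATPsyndelta, Fas2, eag, the unbound neuron genes, Rala, Imp and the genes of the densest stretch were added after their values were seen. Of 101 listed genes, 1 was matched by an older symbol and 1 lies on another chromosome. Members and lists were chosen with earlier results of these data known. Peaks of 2R and 4 enter totals only. The control and signal tracks were not used here.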

Additional observations from a re-analysis of the deposited data

How the results depend on the processing

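Across all alternatives run, the signal percentile of X stayed below the arms (9 settings, -6.87 to -3.41 points), the intron share above (11, 5.37 to 9.16), the intergenic share below (11, -12.3 to -3.65) and the CA repeat share above (11, 2.86 to 6.77). Density kept its direction in 10 of 11 settings. Over the whole pooled list it reversed to 0.0177 in log2 (ratio 1.01), as did the promoter share (1.80 points) and G and C content (-0.187). Against 3L alone the promoter share was 1.44, genes bound -0.928. In the strongest 4547 peaks genes bound were -1.39, the inverted repeat 0.695 and recurrence 0.646. Recurrence was 0.378 in whole replicate lists. The inverted repeat reversed against 3R alone (0.0680), with 0 mismatches (0.0688) and with 2 (0.251). Genes bound were -0.871 for summits within 1 kb of a start and -6.38, -0.512 and -1.45 in the 3 groups of shorter genes, a split chosen after the data were seen. The cause of each reversal was not tested.

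Leaving out each replicate in turn gave -0.316 to -0.225 for log2 density, -6.33 to -3.98 for the percentile, -1.56 to -0.670 for promoters, 5.97 to 7.05 for introns, -6.74 to -5.77 for intergenic sequence, 2.87 to 3.38 for the CA repeat, 0.168 to 0.246 for G and C and -2.33 to -0.209 for recurrence. It gave -0.475 to 0.799 for genes bound, with -0.475 without replicate 2 and -0.242 without replicate 3, and -0.318 to 0.208 for the inverted repeat, with 0.208 and 0.102. No paired analysis was possible because all samples form 1 group, so no groups share replicate numbers; X and the other arms were compared within each replicate. Depth is unknown, and 3 replicates allow no p below 0.25.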

Other observations

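The X regions with the most summits were not all at protein-coding genes. Beside the br and Mur2B region, a pair of adjoining regions at chrX:12750111-12753335 and chrX:12753399-12756855 held 5 and 6 summits, with best ranks of 288 and 295, and lay in the region of no protein-coding gene. The rank 288 summit lies 213 bp from the start of the noncoding gene lncRNA:CR44619. In the second of these regions, a summit of rank 320 lies in a noncoding exon. Both regions were chosen after their values were seen. A region of Ptpmeg2 at chrX:9649724-9652356 held 5 summits with a best rank of 173, and a region at ph-d held 4, of which the best ranked 5469.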
